A study of Mus musculus with 18 samples.

Results

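The genes described here encode 10 proteoglycans, link proteins and matricellular proteins of the nervous system, namely *Bcan*, *Ncan*, *Vcan*, *Tnr*, *Hapln1*, *Cspg5*, *Ptprz1*, *Spock2*, *Sparc* and *Sparcl1*. They were taken by gene name from a table of 35823 named genes, and the counts of their 48 transcripts were summed by name, so that each gene had 1 value per library. All 10 were present in the table. The libraries came from brains of mice at the age of 10 months on a C57BL/6 background, either homozygous for the *Atxn2*-CAG100-KIN allele (KIN), in which an expanded CAG repeat was inserted into the endogenous *Atxn2* gene as a model of spinocerebellar ataxia type 2, or wild-type littermates (WT), without any treatment. Cells of each dissociated brain were separated in sequence with magnetic beads. Microglia were taken out by CD11b, astrocytes by the surface antigen ACSA-2, which is encoded by *Atp1b2*, and the unlabelled remainder after removal of other cells was the neuronal fraction. There were 3 libraries for each fraction and genotype, 18 in all, and the mice were of both sexes, but the sex of each library is not given in its label.

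The matrix of the adult brain holds little fibrous collagen and is built from hyaluronan, to which the lecticans aggrecan, versican, neurocan and brevican bind with the help of link proteins. Tenascin-R crosslinks the lecticans, and this net surrounds synapses, nodes of Ranvier and, in its densest form, certain neurons. Matricellular proteins such as SPARC and hevin are secreted without forming a scaffold and act on cell adhesion and on synapse formation, and astrocytes and oligodendrocyte precursors are known as main sources of many of these molecules.

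Reads were counted after removal of duplicates by molecular identifiers, and the totals of the libraries lay between 2118317 and 2829969 counts for astrocytes, between 2334633 and 3296398 for microglia and between 761481 and 2017932 for neurons. The 10 most abundant transcripts of a library held 76.0% to 85.7% of its total. In WT replicate 2 of the microglia, the largest library, they held 85.3%. Every WT neuronal library was shallower than every KIN neuronal library. The same held for astrocytes, with at most 2300100 counts in WT and at least 2478111 in KIN libraries. Depth and genotype thus went together in both fractions. The 10 genes summed to between 486 and 1586 counts in an astrocyte library, but to between 26 and 93 counts in a neuronal library. *Atxn2* itself was at 10.9 ± 0.49 CPM (SD, n = 3, where CPM is the count of a gene scaled to a common library size) in WT astrocytes and at 9.21 ± 1.75 CPM in KIN astrocytes. WT and KIN groups were at 9.90 ± 2.69 and 6.89 ± 1.24 CPM in microglia and at 6.27 ± 3.60 and 6.39 ± 1.49 CPM in neurons. *Atxn2* was not called in any fraction, which does not check the genotype since the repeat lies within an expressed allele. Marker genes were in keeping with the fraction names for astrocytes, whose 10 astrocyte markers summed to 542 to 1202 CPM there and to at most 67.6 CPM elsewhere, and for microglia, whose 7 markers summed to 445 to 763 CPM there and to at most 15.4 CPM elsewhere. The neuronal fraction was not set apart by its markers. The 16 neuron markers summed to 128 to 346 CPM in the neuronal libraries and to 121 to 297 CPM in WT astrocytes, where 9 of the 16 were called higher and 4 lower than in WT neurons, and 5 of the 16 had 3 counts or fewer in every WT neuronal library. The name neurons below is that of the isolation step. Furthermore, the 8 oligodendrocyte markers summed to 464 to 844 CPM in the astrocyte libraries, so the name astrocytes is also that of the isolation step. WT replicate 2 of the neuronal fraction stood apart, with 275.5 CPM of oligodendrocyte markers against 22.6 to 44.5 CPM in the other neuronal libraries.

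CPM values below were scaled by the trimmed mean of M values (TMM) over all 18 libraries, and log2 fold changes come from the quasi-likelihood test of edgeR on the counts, with the standard error (SE). A gene was called when its Benjamini-Hochberg adjusted p over all genes of the fit was at most 0.05 and its log2 fold change was at least 1 in size. A library with 3 counts or fewer of a gene was taken to be at the floor of detection. CPM compares the same gene between libraries. It was not corrected for transcript length and is not compared between genes here.

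Promoter sequences are shown for those genes of the group whose difference between the genotypes in astrocytes had an adjusted p under 0.05 and that had an entry in the RefSeq promoter table, which held 8 of the 10 genes. Each covers 250 bases before to 50 bases after the RefSeq start of the gene on its own strand and was found at 1 place in GRCm39, at chr8:70573445-70573744 on the minus strand for *Ncan*, chr10:59941829-59942128 on the plus strand for *Spock2*, chr3:87907614-87907913 on the minus strand for *Bcan* and chr6:22875251-22875550 on the plus strand for *Ptprz1*. The windows of *Ncan*, *Spock2* and *Ptprz1* span the start of the gene in the GENCODE annotation, whereas that of *Bcan* lies inside the annotated gene, downstream of its start. Capitals mark matches, on either strand, to TATAAA, the core of the TATA box, to TTGGC, the half-site of nuclear factor I, and to ACAAT, a core bound by SOX proteins.
Ncan: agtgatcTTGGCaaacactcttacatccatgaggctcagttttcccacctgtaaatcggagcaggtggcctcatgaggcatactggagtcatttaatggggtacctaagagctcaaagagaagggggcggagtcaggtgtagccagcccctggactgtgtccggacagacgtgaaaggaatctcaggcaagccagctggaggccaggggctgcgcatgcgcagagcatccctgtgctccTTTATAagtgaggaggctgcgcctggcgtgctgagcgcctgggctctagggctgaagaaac
Spock2: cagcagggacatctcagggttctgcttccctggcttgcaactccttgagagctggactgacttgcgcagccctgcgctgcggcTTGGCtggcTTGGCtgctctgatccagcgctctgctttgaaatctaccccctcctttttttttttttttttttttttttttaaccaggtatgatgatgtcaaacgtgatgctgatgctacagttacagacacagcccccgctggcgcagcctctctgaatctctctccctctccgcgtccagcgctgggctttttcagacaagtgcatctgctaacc
Bcan: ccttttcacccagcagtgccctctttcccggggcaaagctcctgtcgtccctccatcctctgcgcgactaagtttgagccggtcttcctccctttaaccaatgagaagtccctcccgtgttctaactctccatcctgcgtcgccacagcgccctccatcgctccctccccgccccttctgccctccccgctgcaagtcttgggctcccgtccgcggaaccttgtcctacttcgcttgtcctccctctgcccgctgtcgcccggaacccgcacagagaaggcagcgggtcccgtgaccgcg
Ptprz1: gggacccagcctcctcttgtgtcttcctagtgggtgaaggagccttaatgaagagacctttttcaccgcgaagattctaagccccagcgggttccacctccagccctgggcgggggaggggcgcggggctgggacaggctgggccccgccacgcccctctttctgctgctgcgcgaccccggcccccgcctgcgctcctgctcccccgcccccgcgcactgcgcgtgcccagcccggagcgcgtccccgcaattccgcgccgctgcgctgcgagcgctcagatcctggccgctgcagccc
The *Ncan* sequence held 1 match to TATAAA, on the reverse strand, and 1 to TTGGC, and the *Spock2* sequence held 2 matches to TTGGC. The windows of *Bcan* and *Ptprz1* held none of the 3. Of 32851 mouse promoters of this length, 13.6% held TATAAA, 46.7% TTGGC and 31.0% ACAAT on either strand, so these letters are frequent, and the 4 genes showed no motif of the 3 in common.

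In WT brains, most of the 10 genes were highest in astrocytes. Of 13552 genes tested, 24.4% were called between WT astrocytes and WT microglia, and of the group 7 of 9 tested were called, 6 of them higher in astrocytes (13.1% of all genes) and 1 lower (11.3%). Between WT astrocytes and WT neurons 18.5% of all genes were called, and again 7 of 9, with 6 higher in astrocytes (12.4% of all genes) and 1 lower (6.12%). Between WT microglia and WT neurons 17.2% of all genes were called and 2 of 9, with 1 higher (11.7%) and 1 lower (5.48%). Without WT replicate 2 of the neurons, which stood apart, the counts were again 7 and 2. *Hapln1* passed the filter on low counts in no comparison. These fractions came from the same brains, and the labels do not say which libraries share a mouse.

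**Figure D1:**
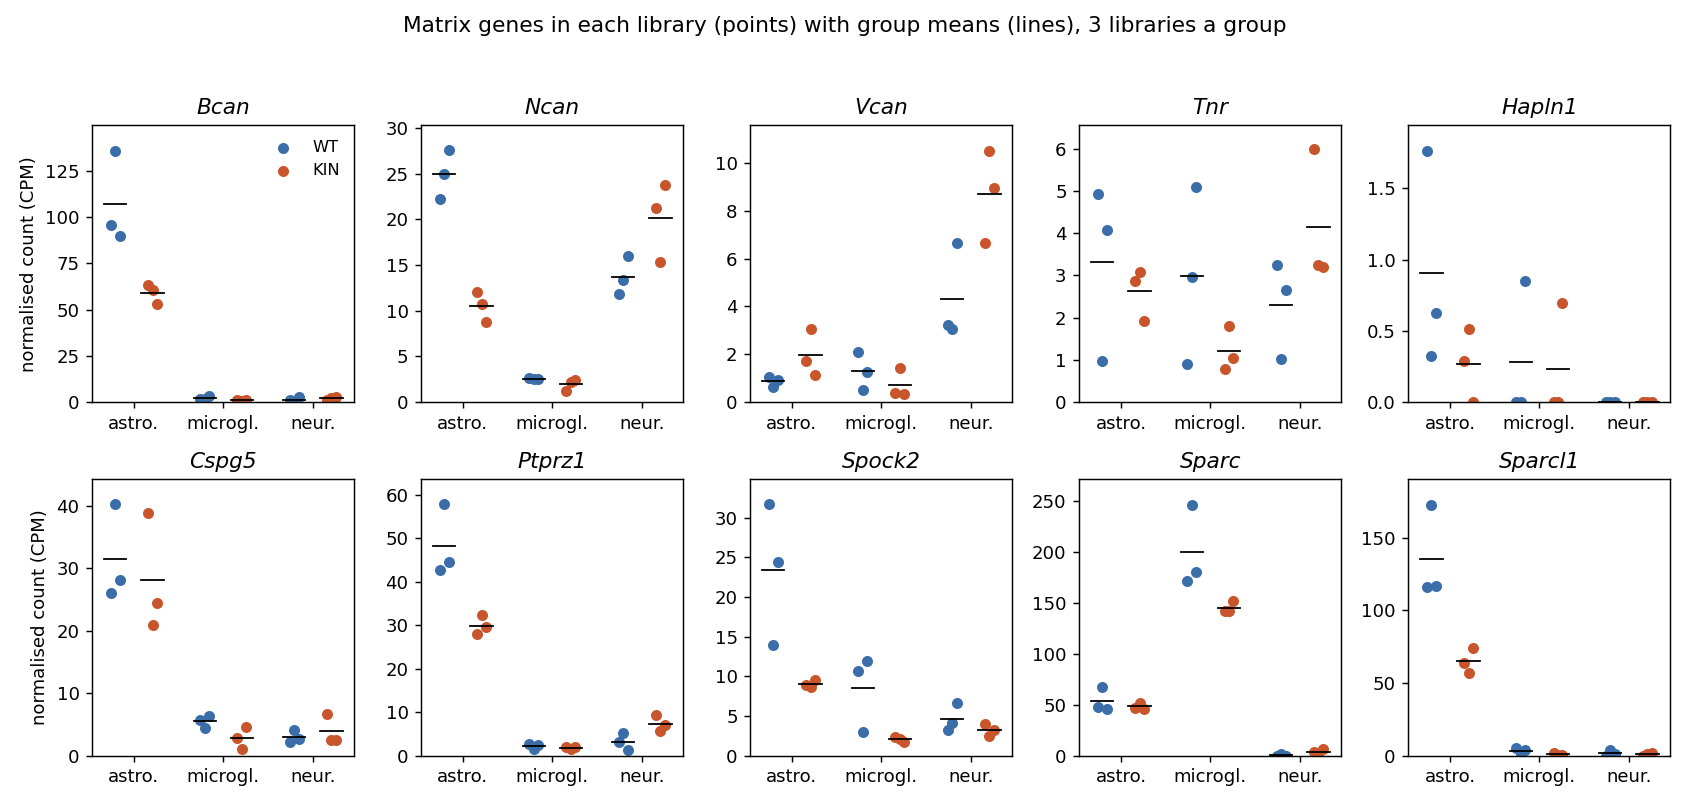
Normalised counts (CPM, vertical axis, linear and starting at 0, its own scale in each panel) of the 10 matrix genes in the astrocyte, microglia and neuronal fractions, with 1 point for each library, blue for WT and red for KIN, and a line at the mean of the 3 libraries. *Bcan*, *Sparcl1* and *Ptprz1* are near the bottom outside astrocytes, *Sparc* is highest in microglia, and *Vcan* is highest in neurons.

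*Bcan* (chr3:87894835-87910177, minus strand, GRCm39, as for all gene positions below) encodes brevican, the smallest lectican and a main proteoglycan of perisynaptic matrix. Its WT libraries held 95.5, 135.7 and 89.5 CPM in astrocytes and 1.48 to 3.39 CPM in microglia. In WT neurons it had 1, 0 and 2 counts, so each library was at the floor. The groups of astrocytes and microglia were far apart, with a log2 fold change of 5.57 (SE 0.35, adjusted p = 6.72e-29), and the summed counts of astrocytes over neurons, scaled for depth, gave a ratio of 94.7 with an exact 95% interval of 32.3 to 459.8 that covers counting error only.

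*Ncan* (chr8:70538926-70573523, minus strand) encodes neurocan, a lectican of the developing brain made by neurons and astrocytes. It was above the floor in each WT library of all 3 fractions. The WT astrocyte libraries held 22.2, 25.0 and 27.5 CPM, the WT neuronal libraries 11.9, 13.3 and 16.0 CPM, and the WT microglia libraries 2.47 to 2.67 CPM. The 3 fractions did not overlap. Astrocytes were above microglia by a log2 fold change of 3.25 (SE 0.34, adjusted p = 7.63e-15) and microglia below neurons by -2.37 (SE 0.43, adjusted p = 6.41e-06). The difference between astrocytes and neurons, 0.87 (SE 0.32, adjusted p = 0.0377), was not called, and its adjusted p was 0.142 without WT replicate 1 of the neurons and 0.103 without WT replicate 2, the library that stood apart. With only the most abundant transcript of each gene this difference was called at 1.11 (adjusted p = 0.0113). *Ncan* overlaps *Hapln4*, the gene of a link protein on the other strand, by 4608 bases, and counting was done without strand, but *Hapln4* had at most 7 counts in any library.

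*Vcan* (chr13:89803431-89890814, minus strand) encodes versican, a lectican of oligodendrocyte precursors and of nodes of Ranvier. It was low throughout and highest in the neuronal fraction. In WT astrocytes it had 3, 2 and 3 counts, all at the floor, in WT microglia 7, 1 and 3 counts, and in WT neurons 3, 3 and 5 counts from much shallower libraries. After scaling, WT neurons were 4.72-fold above WT astrocytes in the summed counts, with an exact 95% interval of 1.73 to 13.5 for counting error. That difference was called (adjusted p = 0.0229), but not without WT replicate 2 of the astrocytes (adjusted p = 0.0627), without WT replicate 3 of the neurons (adjusted p = 0.161) or without the filter on low counts (adjusted p = 0.0523). With only the most abundant transcript of each gene it was at -1.80 on the log2 scale (adjusted p = 0.306).

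*Tnr* (chr1:159351339-159759299, plus strand), the gene of tenascin-R, which is known as a product of oligodendrocytes and some neurons, did not separate the fractions. WT libraries held 4.93, 0.97 and 4.07 CPM in astrocytes, 0.89, 2.97 and 5.09 CPM in microglia, and 1.02 to 3.24 CPM in neurons, where each library had 3 counts or fewer. All 3 groups overlapped, and no contrast of *Tnr* between the WT fractions was called. *Hapln1* (chr13:89686581-89759950, plus strand), the gene of the cartilage link protein, had 5, 1 and 2 counts in WT astrocytes, at most 2 counts in any microglia library and none in the 6 neuronal libraries. In the WT neuronal libraries the limit of 3 counts corresponds to 2.95 to 3.94 CPM of the library total, before scaling, and so *Hapln1* at a low level was not detectable there.

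*Cspg5* (chr9:110072851-110091644, plus strand) encodes neuroglycan C, a membrane-bound chondroitin sulfate proteoglycan, and *Ptprz1* (chr6:22875358-23054236, plus strand) encodes a receptor-type tyrosine phosphatase that carries chondroitin sulfate and binds pleiotrophin, contactin 1 and tenascins. WT astrocyte libraries held 26.1, 40.2 and 28.2 CPM of *Cspg5* against 4.45 to 6.36 CPM for microglia and 2.16 to 4.10 CPM for neurons. For *Ptprz1* they held 42.6, 57.8 and 44.4 CPM against 1.48 to 2.67 CPM for microglia and 1.33 to 5.12 CPM for neurons. The astrocyte libraries of both genes lay above all others. *Cspg5* was higher by a log2 fold change of 2.50 (SE 0.31) than in microglia and of 3.36 (SE 0.45) than in neurons, and *Ptprz1* by 4.35 (SE 0.34) and 3.82 (SE 0.40), with adjusted p of at most 7.83e-10 for these 4 contrasts.

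*Spock2* (chr10:59942041-59971357, plus strand), *Sparc* (chr11:55285317-55314067, minus strand) and *Sparcl1* (chr5:104226288-104262065, minus strand) share a SPARC-type calcium-binding domain. *Spock2* encodes testican-2, a secreted heparan sulfate proteoglycan made by neurons and glia. Its WT libraries held 31.7, 14.0 and 24.4 CPM in astrocytes, 10.7, 2.97 and 11.9 CPM in microglia and 3.24, 4.10 and 6.65 CPM in neurons. Replicate 2 was the lowest of the 3 in both WT glial groups, as it was for the summed neuron markers. The difference of astrocytes from microglia was 1.39 (SE 0.29, adjusted p = 5.33e-05) and from neurons 2.35 (SE 0.43, adjusted p = 6.11e-06), both on the log2 scale.

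*Sparc* was the one gene of the group that was called higher in microglia than in astrocytes, and *Sparcl1*, which encodes hevin, a synaptogenic astrocyte protein, was called higher in astrocytes than in either other fraction. WT libraries held 172, 247 and 181 CPM of *Sparc* in microglia, 47.9, 67.5 and 46.0 CPM in astrocytes, and 0, 2 and 0 counts in neurons. For *Sparcl1* they held 116, 173 and 117 CPM in astrocytes, 0.99 to 5.05 CPM for microglia and 0 to 4.10 CPM for neurons. The 2 genes thus had opposite orders between the glial fractions. *Sparc* was lower in astrocytes than in microglia by a log2 fold change of -1.89 (SE 0.26, adjusted p = 1.34e-09), while *Sparcl1* was higher by 5.24 (SE 0.34, adjusted p = 2.73e-27). In summed counts *Sparc* was 258-fold higher in WT microglia than in WT neurons, with an exact 95% interval of 71.2 to 2129, and 71.5-fold higher in WT astrocytes than in WT neurons, with one of 19.7 to 592.

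**Figure D2:**
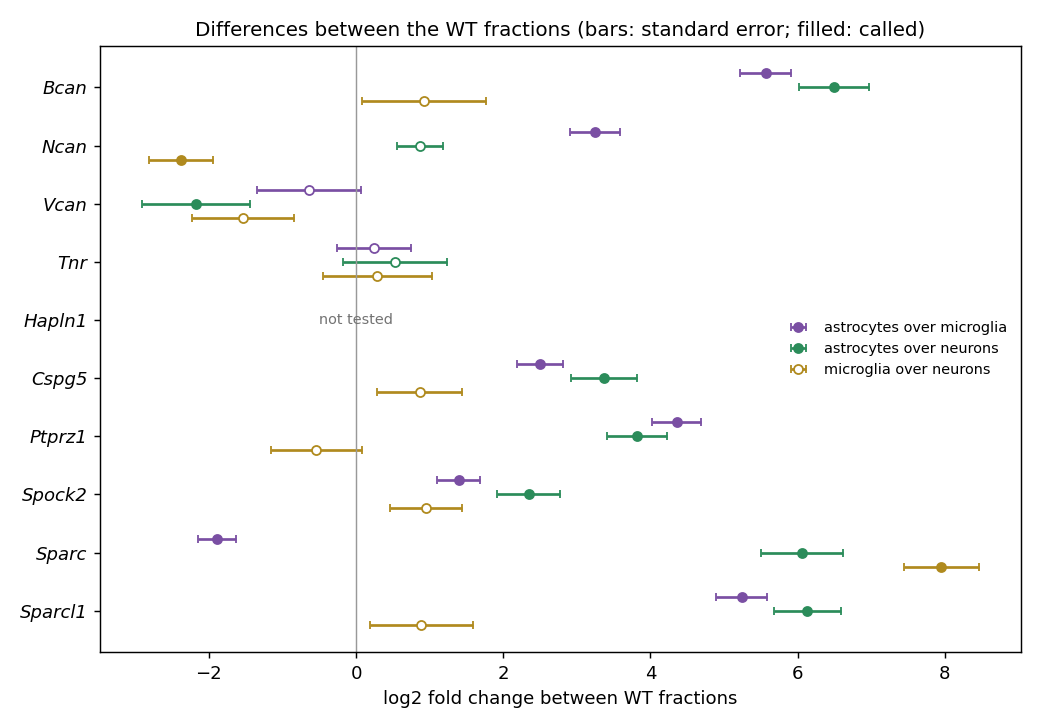
Fitted log2 fold changes between the WT fractions (horizontal axis) for the 9 matrix genes tested, with bars for the standard error, filled points for called differences and 1 colour for each pair of fractions. *Bcan*, *Cspg5*, *Ptprz1*, *Spock2* and *Sparcl1* have filled points right of 0 for astrocytes over both other fractions, *Sparc* lies left of 0 for astrocytes over microglia at -1.89, and the values for *Bcan*, *Sparc*, *Tnr* and *Vcan* that involve a group at the floor depend on the prior count of the fit.

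In astrocytes, the KIN libraries had less RNA of several proteoglycan and matricellular genes. *Spock2*, *Ncan* and *Sparcl1* were called lower, and no gene of the group was called higher, so 3 of 9 tested were called lower against 6.42% of the 11751 genes tested, with 2.43% of them called higher and 8.85% called in either direction. By the adjusted p alone *Bcan* and *Ptprz1* were lower too, 5 of 9 against 7.57% of all genes. The summed CPM of the 10 genes, which needs no filter, was 382 to 515 in WT and 249 to 266 in KIN astrocytes. In a bulk fraction, fewer cells of a type and less RNA per cell cannot be told apart.

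*Ncan* had 22.2, 25.0 and 27.5 CPM in WT astrocytes and 12.1, 10.7 and 8.80 CPM in KIN astrocytes. *Sparcl1* had 116, 173 and 117 CPM against 63.9, 56.8 and 74.2 CPM. *Spock2* had 31.7, 14.0 and 24.4 CPM against 8.92, 8.70 and 9.57 CPM. In all 3 genes the KIN and WT libraries did not overlap, as was so for 27.9% of all genes tested. The narrowest gap was that of *Spock2*, where WT replicate 2 came close to the KIN level. The log2 fold changes were -1.25 (SE 0.24, adjusted p = 0.000228) for *Ncan*, -1.07 (SE 0.22, adjusted p = 0.000504) for *Sparcl1* and -1.37 (SE 0.26, adjusted p = 0.000236) for *Spock2*. *Sparcl1* was near the threshold of 1 and was no longer called without WT replicate 2 (-0.86) or KIN replicate 2 (-0.99) of the astrocytes, although its adjusted p stayed at or below 0.00874 under each of the 15 alternatives.

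*Bcan* had 95.5, 135.7 and 89.5 CPM in WT and 63.3, 60.4 and 52.8 CPM in KIN astrocytes, and *Ptprz1* had 42.6, 57.8 and 44.4 CPM against 27.9, 32.2 and 29.5 CPM. Again the groups did not overlap, as was so for 27.9% of all genes tested. Their log2 fold changes of -0.88 (SE 0.21, adjusted p = 0.00385) and -0.72 (SE 0.21, adjusted p = 0.0182) were under the threshold of size. Without KIN replicate 3, the adjusted p rose to 0.0680 for *Bcan* and 0.101 for *Ptprz1*, and without KIN replicate 1 that of *Ptprz1* was 0.0705. With all 18 libraries in one fit it was 0.0523 for *Ptprz1*.

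The other genes of the group did not pass the test in astrocytes. *Sparc* had 47.9, 67.5 and 46.0 CPM in WT and 46.6, 52.2 and 46.3 CPM in KIN libraries, and *Cspg5* had 26.1, 40.2 and 28.2 CPM against 38.8, 21.0 and 24.5 CPM. Both pairs of groups overlapped, with log2 fold changes of -0.17 (SE 0.21, adjusted p = 0.671) and -0.15 (SE 0.23, adjusted p = 0.743). *Tnr* had a log2 fold change of -0.35 (SE 0.46, adjusted p = 0.703). *Vcan* had 3, 2 and 3 counts in WT and 6, 6 and 3 counts in KIN libraries (adjusted p = 0.379), a ratio of 2.12 with an exact 95% interval of 0.846 to 5.79 for counting error. Groups did not overlap, in one direction or the other, for 27.9% of all genes tested. *Vcan* passed the filter only through the KIN group, so its direction is not read here.

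**Figure D3:**
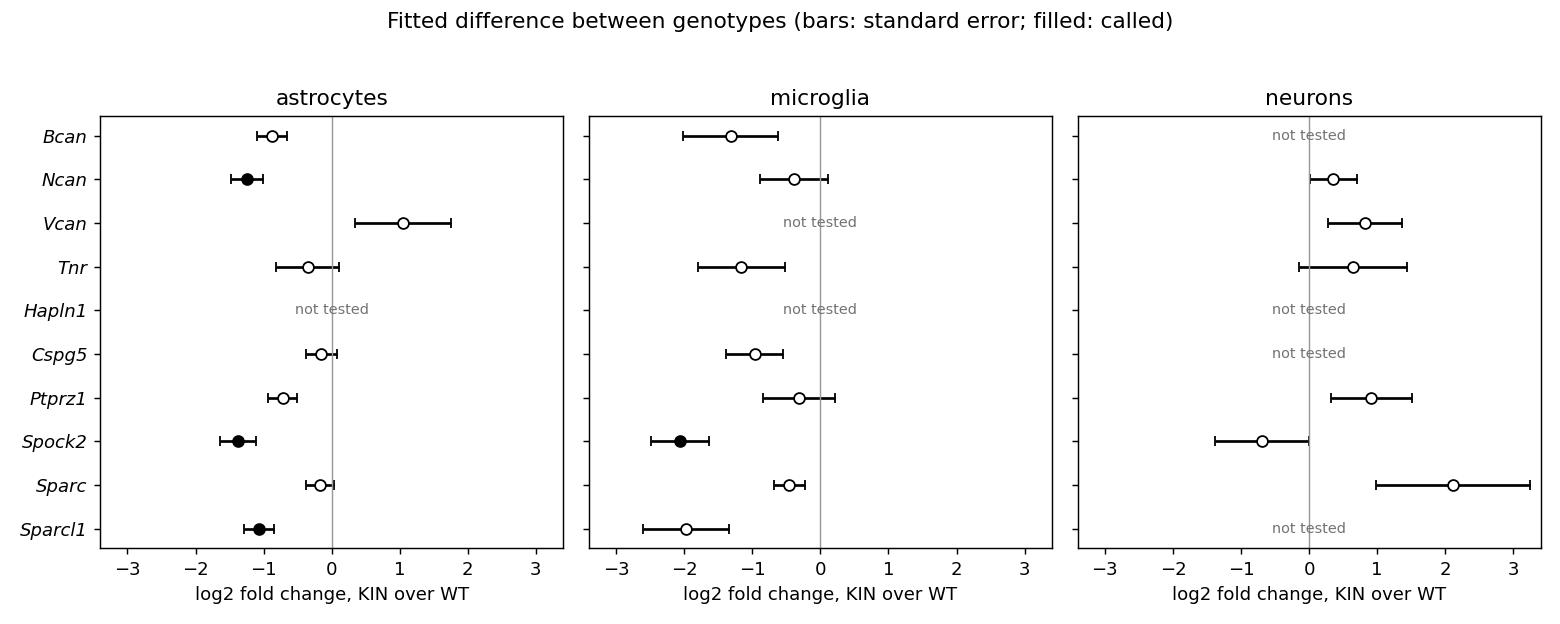
Fitted log2 fold changes of KIN over WT (horizontal axis) for the 9, 8 and 6 matrix genes tested in astrocytes, microglia and neurons, from 3 libraries a group, with bars for the standard error and filled points for called genes. 3 points are filled in astrocytes and 1 in microglia, all left of 0, and none is filled in neurons.

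Markers of several cell types moved with these differences. Of the 10 astrocyte markers 4 were called lower in KIN astrocytes, namely *Gja1*, *Slc1a2*, *Fgfr3* and *Atp1b2*, the last being the antigen of the isolation itself at -1.05 (SE 0.22), and none was called higher. By the adjusted p alone *Aldoc* was lower (-0.98), and *Gfap*, the intermediate filament of reactive astrocytes, and *S100b* were higher (0.80 and 0.93). The marker sum ranged from 812 to 1202 CPM in WT and from 542 to 567 CPM in KIN libraries, with none of the 10 at 0. Of the 16 neuron markers 14 were called lower, and their sum was 121 to 297 CPM in WT and 66.6 to 78.3 CPM in KIN astrocyte libraries, with none at 0. *Tubb3*, a neuronal tubulin, was higher by the adjusted p alone (log2 fold change 0.92, adjusted p = 0.0219 by edgeR, 7.76 CPM in WT and 15.1 CPM in KIN astrocytes). Oligodendrocyte markers summed to 464 to 727 CPM in WT and 823 to 844 CPM in KIN libraries, with 2 of 8 called higher and none at 0, and oligodendrocyte precursor markers to 31.0 to 45.1 CPM and 53.5 to 60.4 CPM, with 1 of 5 tested called higher and none of the list at 0. The part of these markers' cells in the values of the matrix genes was not tested.

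As a description, the CPM of each gene was set against the summed CPM of the 10 astrocyte markers of the same library, a measure chosen after its components had been seen. *Bcan* was at 11.3% ± 0.47 (SD, n = 3) of the marker sum in WT and 10.7% ± 1.20 in KIN astrocytes, and *Ptprz1* at 5.15% ± 0.30 and 5.41% ± 0.46. Both pairs of groups overlapped on this scale. *Sparcl1* was at 14.3% ± 0.12 and 11.7% ± 1.31, without overlap, and *Ncan* at 2.72% ± 0.63 and 1.91% ± 0.33, with overlap. *Spock2* was at 3.91%, 1.16% and 2.96% in WT and 1.63%, 1.60% and 1.69% in KIN libraries, so WT replicate 2 fell below the KIN libraries. *Sparc* was at 5.70% ± 0.18 and 8.77% ± 0.76 and *Cspg5* at 3.32% ± 0.10 and 5.10% ± 1.75, both without overlap and higher in KIN. The marker sum itself was lower in KIN libraries, so a gene of equal CPM in both genotypes rises on this scale. The share of all genes without overlap on this scale was not determined.

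**Figure D4:**
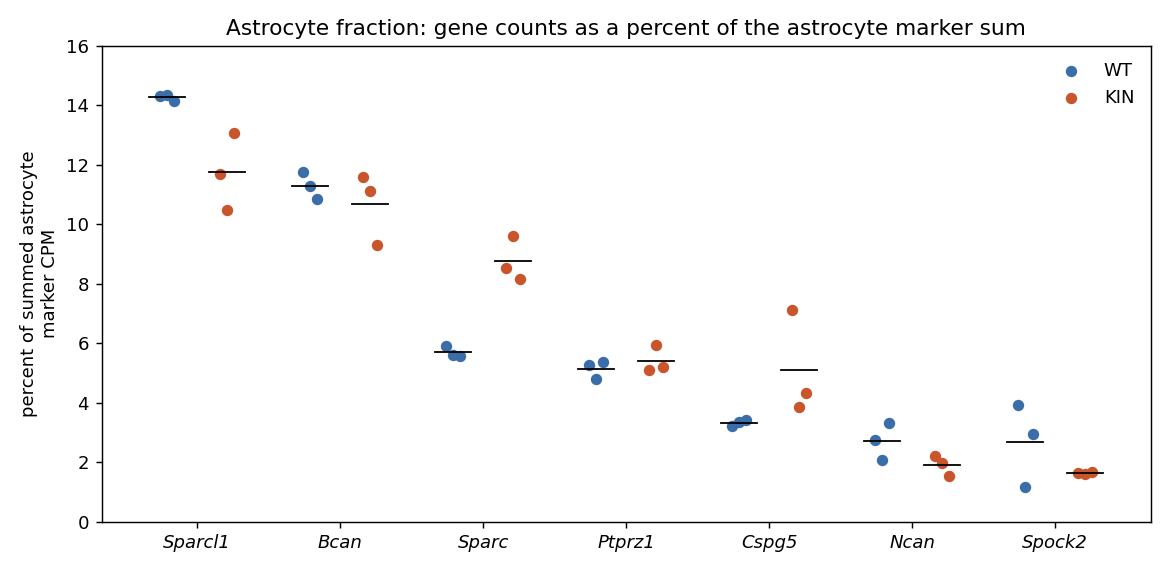
CPM of 7 matrix genes as a percent of the summed CPM of 10 astrocyte markers (vertical axis, starting at 0) in the astrocyte libraries, with 1 point for each library, blue for WT and red for KIN, and a line at the mean of 3. *Sparc* is at 5.70% in WT and 8.77% in KIN on this scale, *Bcan* and *Ptprz1* overlap between the genotypes, and WT replicate 2 of *Spock2* lies at 1.16%.

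In microglia, *Spock2* was the one gene of the group that was called between the genotypes, 1 of 8 tested against 0.785% of 10831 genes called lower and 1.52% called in either direction. It had 36, 6 and 28 counts in WT and 6, 6 and 5 counts in KIN microglia, which correspond to 10.7, 2.97 and 11.9 CPM against 2.38, 2.15 and 1.74 CPM. The groups did not overlap, as was so for 16% of all genes tested, but WT replicate 2 lay close to the KIN libraries. The log2 fold change was -2.06 (SE 0.43, adjusted p = 0.0120). The call was lost without any one of WT replicates 1 and 3 and KIN replicates 1, 2 and 3 (adjusted p from 0.0638 to 0.106), while without WT replicate 2 the adjusted p was 4.90e-05. DESeq2 gave an unadjusted p of 0.000526 and no adjusted p, since the gene fell under its own filter on the mean count.

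Neuron markers in the microglia libraries moved with *Spock2*. Their 16 genes summed to 130, 40.6 and 128 CPM in WT replicates 1, 2 and 3 and to 23.0, 25.4 and 19.8 CPM in the KIN replicates, and 10 of 16 were called lower, with none at 0. Replicate 2 was thus the lowest WT library in both measures. Astrocyte markers summed to 26.7 to 42.4 CPM in WT and 17.7 to 20.1 CPM in KIN microglia, with 3 of 6 tested called lower. Oligodendrocyte markers summed to 32.2 to 35.3 CPM in WT and 18.4 to 19.7 CPM in KIN microglia, with none of 6 tested called. The sums of endothelial markers overlapped, at 40.7 to 57.4 CPM and 48.0 to 54.3 CPM. The part of these cells in the *Spock2* values was not tested.

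**Figure D5:**
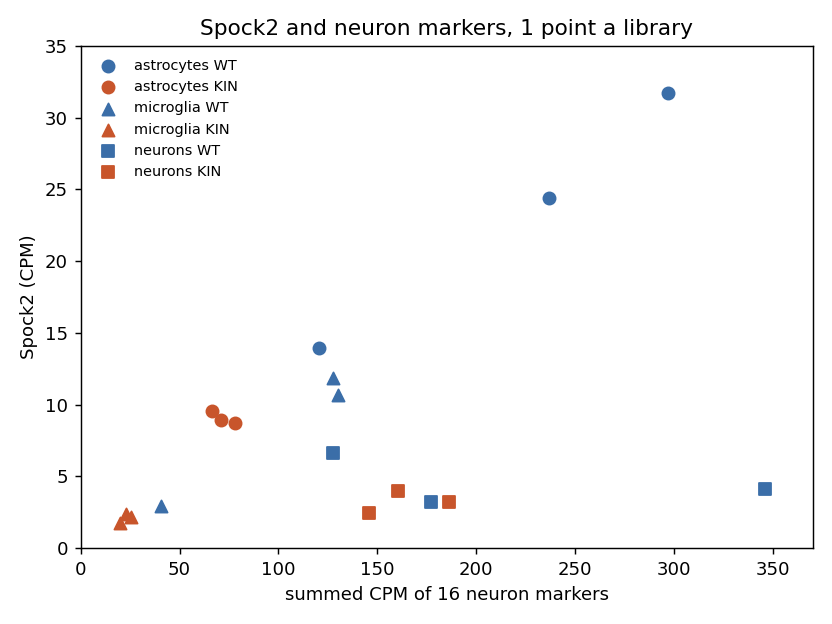
*Spock2* (vertical axis, CPM) against the summed CPM of 16 neuron markers (horizontal axis), both axes linear from 0, with 1 point for each of the 18 libraries, blue for WT and red for KIN, and circles, triangles and squares for astrocytes, microglia and neurons. In both glial fractions the WT library with the lowest marker sum also has the lowest *Spock2* of the WT libraries, and the neuronal libraries lie at 2.43 to 6.65 CPM of *Spock2* with marker sums of 128 to 346 CPM.

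*Sparc*, the gene of the group that was called higher in microglia than in both other WT fractions, had 172, 247 and 181 CPM in WT and 143, 142 and 152 CPM in KIN libraries. The KIN libraries all lay below the WT libraries, and groups did not overlap, in one direction or the other, for 16.0% of all genes. The log2 fold change of -0.45 (SE 0.23, adjusted p = 0.429) did not pass the test. *Sparcl1* had 17, 2 and 9 counts in WT and 4, 2 and 1 counts in KIN microglia, with a log2 fold change of -1.98 (SE 0.63, adjusted p = 0.125), and without WT replicate 2 it was called at -2.35 (adjusted p = 0.0115). *Cspg5* had 19, 9 and 15 counts against 7, 3 and 13 counts, *Bcan* 6, 3 and 8 against 3, 1 and 3, and neither passed (adjusted p of 0.320 and 0.482). *Bcan*, *Sparcl1* and *Tnr* passed the filter on low counts only through the WT group, so their direction is not read here. The summed CPM of the 10 genes, which needs no filter and is mostly *Sparc* here, was 203 to 264 in WT and 153 to 166 in KIN microglia.

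The KIN effect in microglia minus that in astrocytes was tested as an interaction on the 12 libraries, with 1.17% of 13277 genes called. None of the 9 genes of the group that were tested was called, and none had an unadjusted p of at most 0.05 (edgeR), which 13.2% of all genes had. DESeq2 called none either. The fitted difference of *Spock2* was -0.71 (SE 0.52, adjusted p = 0.605), that of *Ncan* 0.84 (SE 0.56, adjusted p = 0.558) and that of *Sparc* -0.28 (SE 0.33, adjusted p = 0.782). A difference between the fractions was thus not detectable at this depth, which does not show that the effects were alike.

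In neurons no gene of the group was called, out of 6 that passed the filter and against 0.0148% of 6765 genes, which is 1 gene. None had an unadjusted p of at most 0.05 with edgeR, against 5.04% of all genes, and DESeq2 called none. *Ncan* had 11.9, 13.3 and 16.0 CPM in WT and 21.3, 15.4 and 23.7 CPM in KIN neurons, with overlap and a log2 fold change of 0.36 (SE 0.34, adjusted p = 0.970). *Ptprz1* had 3, 5 and 1 counts in WT and 14, 7 and 11 counts in KIN neurons, which did not overlap as CPM, with a log2 fold change of 0.92 (SE 0.59, adjusted p = 0.970). Groups did not overlap for 13.9% of all genes there. *Vcan* had 3, 3 and 5 counts against 10, 13 and 14 counts and a log2 fold change of 0.82 (SE 0.54, adjusted p = 0.970), and *Sparc* 0, 2 and 0 counts against 6, 2 and 10 counts. The KIN libraries with these higher counts were also the deeper ones, and the part of depth in these values was not tested. The summed CPM of the 10 genes was 28.1 to 39.9 in WT and 44.5 to 59.6 in KIN neurons, higher in each KIN library where the glial fractions had lower sums. These sums are given with no test. The log2 fold change of *Spock2* was -0.69 (SE 0.68) and that of *Tnr* 0.64 (SE 0.80). All 6 genes tested except *Ncan* passed the filter only through the KIN group, so their direction is not read here. *Bcan*, *Sparcl1*, *Cspg5* and *Hapln1* were not tested.

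The KIN effect of *Ncan* differed between neurons and astrocytes. This comparison was added after the values had been seen, as an interaction on the 12 libraries of both fractions in which 1.17% of 12358 genes were called. *Ncan* was the one gene called of 9 tested, with a difference of 1.80 on the log2 scale (SE 0.44, adjusted p = 0.0139), and without WT replicate 2 of the neurons it was 1.79 (adjusted p = 0.0279). It was not called without WT replicate 3 (adjusted p = 0.0799) or KIN replicate 3 (adjusted p = 0.0993) of the astrocytes. *Ncan* was higher in astrocytes than in neurons by 0.87 between the WT groups and lower, at -0.93 (adjusted p = 0.0106), between the KIN groups, neither being called. *Ptprz1* had a difference of 1.82 (SE 0.59, adjusted p = 0.105), which was not called.

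Transcripts were also tested one by one. In astrocytes 7 of 27 tested transcripts of the group were called, all lower (4 without WT replicate 2), against 5.78% of 15548 transcripts called lower and 8.36% called in all. They belonged to the same 3 genes and to *Bcan*, namely Ncan-201, the only *Ncan* transcript in the table (-1.29, SE 0.27), both *Sparcl1* transcripts, Sparcl1-201 (-1.06, SE 0.25) and Sparcl1-202 (-1.47, SE 0.29), Spock2-201 (-1.52, SE 0.30) and Spock2-203 (-1.37, SE 0.38), and Bcan-201 (-1.06, SE 0.25) and Bcan-204 (-1.53, SE 0.52). Bcan-201, which codes for the protein, held 64.8% of the *Bcan* counts over all libraries, and Bcan-204 is annotated as a retained intron. In microglia Spock2-201 alone was called, lower, 1 of 13 against 0.418% of all transcripts called lower and 0.92% called in all (-2.40, SE 0.50, adjusted p = 0.00754), and in neurons none of 4 against 0.0181%. DESeq2 called no transcript of the group in microglia, and edgeR called none without any one of WT replicates 1 and 3 and KIN replicates 1, 2 and 3, and 2 without WT replicate 2. Transcripts of 1 gene share sequence, so their counts are not independent. By the authors' account the reads cover only 3' ends of mRNA and represent a small part of the isoforms.

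Other genes of the brain matrix were read against the 8.85% of all genes called in astrocytes and the 1.52% called in microglia. Of 7 other lecticans, link proteins and tenascins only *Hapln2* and *Tnxb* were tested in astrocytes and neither was called, with *Tnxb*, the gene of tenascin-X, at -0.38 (adjusted p = 0.754). *Hapln2*, the gene of the link protein of nodes of Ranvier, was at 22.0 ± 4.74 CPM in WT and 22.2 ± 6.08 CPM in KIN astrocytes, and *Acan*, the gene of aggrecan, had at most 2 counts in any library. None of 15 tested genes of hyaluronan and chondroitin sulfate synthesis and none of 11 tested other proteoglycan core proteins was called in astrocytes. Of their lowest p, *Chst15*, a chondroitin sulfotransferase, was at -1.60 (adjusted p = 0.0558) and *Sdc3*, the gene of syndecan-3, at -0.68 (adjusted p = 0.0474).

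Among 7 tested other matricellular genes, *Smoc1*, a SPARC-related gene, was called higher in KIN astrocytes, from 5, 4 and 3 counts to 25, 15 and 24 counts (adjusted p = 1.5e-05). Of 10 tested proteases and inhibitors, *Timp2*, an inhibitor of matrix metalloproteinases, was called higher at 1.40 (SE 0.26), and *Adamts10* and *Mmp17* lower at -1.33 (SE 0.38) and -1.45 (SE 0.48). Of 14 receptors and binding partners *L1cam*, a neuronal adhesion molecule, was called lower at -1.49 (SE 0.49). In microglia *Spp1*, the gene of osteopontin, which is raised in reactive microglia, went from 1, 0 and 4 counts to 27, 27 and 33 counts (called at adjusted p = 3.6e-05), and *Nfasc*, the gene of the nodal protein neurofascin, was called lower at -1.58 (SE 0.41), as the only genes of these lists called there. *Smoc1* and *Spp1* passed the filter on low counts only through the KIN group and *Mmp17* only through the WT group, where each was high, so these 3 calls are given as values and no direction is read from them. No gene of these lists was called in neurons.

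The genes most like each gene of the group over the 18 libraries were sought among 13552 genes by the root mean square difference of their centred log2 CPM, where fraction and genotype are shared by all points. *Sparcl1* was nearest to *Ntsr2*, *Slc1a2* and *Atp1b2* (0.74 to 0.85), of which the last 2 are among the astrocyte markers. *Bcan* was nearest to *Prnp*, *Tril* and *Hes5* (0.66 to 0.79), and *Ptprz1* to *Tspan2* and *Cntfr* (0.46 and 0.51). *Spock2* was nearest to *Syn2*, *Unc80* and *Gabbr1* (0.53 to 0.54), of which *Syn2* encodes a synaptic vesicle protein and *Gabbr1* a GABA receptor subunit. *Ncan* was nearest to *Ncam1*, *Fndc4* and *Agrn* (0.36 to 0.51), *Sparc* to *Tmcc3*, *Sirpa* and *Abhd12* (0.93 to 1.01), and *Cspg5* to *Frmpd1*, *Rasal1* and *Ccdc190* (0.44 to 0.54). *Vcan* and *Tnr* had few counts, and their nearest genes were *Hmgn2-ps*, *H1f0* and *Mcm7* for *Vcan* (0.48 to 0.58) and *Spindoc*, *Runx1t1* and *Nup50* for *Tnr* (0.49 to 0.52).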

How the data were processed

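RNA of MACS fractions of 10-month-old WT and KIN brains was depleted of ribosomal RNA, polyadenylated and sequenced by MACE-seq with molecular identifiers. The authors give as a limit that only 3' ends of mRNA are covered and few isoforms are represented. Per the labels and methods, the authors trimmed reads with cutadapt 4.6, removed duplicates, mapped them with Bowtie2 2.4.4 to mm39 and counted them with HTSeq 2.0.2 without strand, and they deposited whole-number counts per transcript. The deposited columns of the authors' own comparisons and 36 other columns that hold values of single samples were left aside. Counts were summed by gene name, and 137 rows without a name (0.0222% of reads) were kept under their identifiers. Tested were genes that reached 5 reads in 2 or more libraries of the fit, with edgeR 4.0.16 (TMM, glmQLFTest) in R 4.3.3, each fraction on its 6 libraries and fraction contrasts on all 18. The SE is the size of the fold change divided by the root of F. The scripts were tested on simulated data. Gene positions came from the GENCODE annotation of GRCm39, the assembly of mm39, and promoters from RefSeq (GRCm38.p6), matched to GRCm39. The named genes are all 10 members, of the other matrix lists at most 3 called genes with the smallest adjusted p or, with none called, the one with the smallest p (given for astrocytes), the 3 nearest genes of each member, of which 1 is not reported here, and *Atxn2*. *Acan*, *Hapln2*, *Hapln4* and the named marker genes were chosen after their values were seen. The members, lists and alternatives were chosen with earlier results of these data known. Counting intervals cover counting error only.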

Additional observations from a re-analysis of the deposited data

Results flagged for a closer look

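The KIN effect of *Ncan* differed between the neuronal and the astrocyte fraction by 1.80 on the log2 scale (adjusted p = 0.0139) in a test of the difference itself, which was added after the values had been seen. The call was lost without WT replicate 3 (adjusted p = 0.0799) or KIN replicate 3 (adjusted p = 0.0993) of the astrocytes. Library totals were apart between the genotypes in both fractions, so depth and genotype cannot be told apart there. *Ptprz1* was lower in all 3 KIN than in all 3 WT libraries of astrocytes and higher in all 3 KIN than in all 3 WT libraries of neurons, with a difference of 1.82 that was not called (adjusted p = 0.105). In the neuronal fraction it had 3, 5 and 1 counts in WT and 14, 7 and 11 counts in KIN libraries and passed the filter there only through the KIN group, so no opposite effect is read from these values. Groups did not overlap for 27.9% of all genes tested in astrocytes and for 13.9% in neurons.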

How the results depend on the processing

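The alternatives were DESeq2 1.42.0, the size factors of DESeq2 in edgeR, TMM without mitochondrially encoded and the 10 most abundant genes, testing every gene with reads, testing those whose mean count reached 10, the adjusted p alone, a replicate block, the most abundant transcript of each gene, all 18 libraries in 1 fit or only the 2 WT groups, the contrast between the KIN groups, and each library left out in turn. Of 948 values of single genes 929 kept their direction, and of 157 counts of called genes or transcripts 138 stayed within 1.5 times. The adjusted p alone changes only the rule for calling, so its values among the 948 could not change direction. The cause of the other 19 and 19 was not tested. By the adjusted p alone 5 genes were called in astrocytes. DESeq2 called 0 genes and 0 transcripts in microglia, where it gave *Spock2* no adjusted p. Between the KIN groups of microglia and neurons 5 genes were called, with *Vcan*, *Ptprz1* and *Tnr* beside *Sparc* and *Ncan*. The share of all genes called in that contrast is not given here, so this count is not read against the WT contrast.

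When single libraries were left out, the genes called between the genotypes numbered 2 to 3 in astrocytes, 0 to 2 in microglia and 0 to 0 in neurons, and the number of transcripts 4 to 7, 0 to 2 and 0 to 0. It was 0 to 1 for the difference between neurons and astrocytes, 0 to 0 for that between microglia and astrocytes, 7 to 7 for WT astrocytes against microglia, 6 to 7 against neurons and 2 to 3 for microglia against neurons. In astrocytes these ranges crossed 0 for *Sparc* (-0.28 to 0.017), *Tnr* (-0.79 to 0.0081) and *Cspg5* (-0.47 to 0.071), and *Tnr* crossed 0 between WT astrocytes and microglia (-0.30 to 0.92) and between WT microglia and neurons (-0.39 to 0.84), none of them called. With the most abundant transcript, *Sparc* in astrocytes was at 0.031 and *Bcan* at 0.29 in the difference between microglia and astrocytes. Between the KIN groups the direction turned for *Ncan* (-0.93) and *Tnr* (-0.67) in astrocytes over neurons, for *Vcan* (1.30) in astrocytes over microglia, and in microglia over neurons for *Spock2* (-0.63), *Bcan* (-1.24), *Sparcl1* (-0.11), *Tnr* (-1.73) and *Cspg5* (-0.48).

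Libraries with the same replicate number did not deviate together throughout (r = -0.011, 0.112 and 0.0069 between WT and KIN astrocytes over 4291 genes). Between WT astrocytes and WT microglia r was 0.0684, 0.245 and 0.159 for the same number and -0.207 to 0.105 for different numbers, a hint of pairing in which WT replicate 1 of the astrocytes was nearer to replicate 3 of the microglia, and between the KIN groups it was -0.0557, 0.0346 and 0.0259. The numbers were not taken to pair mice. With the replicate block the counts of called genes were 3 in astrocytes, 1 in microglia and 0 in neurons, 7, 7 and 2 in the WT contrasts and 0 and 1 in the differences between fractions, as without it, and those of transcripts were 7, 1 and 0. Depth limits the neuronal fraction most, where 4 of the 10 genes were not tested.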

Other observations

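The genes of the lecticans lie beside genes of link proteins on GRCm39. *Vcan* is separated from *Hapln1* by 43480 bases and *Bcan* from *Hapln2* by 16622 bases, in both cases with 0 protein-coding genes between them, and *Ncan* overlaps *Hapln4*. *Bcan* was lower in KIN astrocytes at -0.88 (adjusted p = 0.00385), while *Hapln2* was at -0.01 (SE 0.23, adjusted p = 0.980). *Vcan* had 3 to 14 counts in the neuronal libraries, where *Hapln1* had 0 counts in all 6.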
